A study of Nicotiana tabacum with 12 samples.

Results

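Expansins, xyloglucan enzymes and cellulose synthases build and loosen the network of cellulose and xyloglucan in the plant cell wall, and their genes were followed here in seedling leaves of tobacco (Nicotiana tabacum). The genes were all those whose description in the deposited table, a list of protein domain names, contained expansin, xyloglucan or cellulose synthase in any case. This gave 233 of 69500 genes, made up of 112 expansins, 66 xyloglucan enzymes and 55 cellulose synthases. RNA was sequenced in 4 groups of 3 libraries, all from leaf. The groups were the wild type KY, the wild type K326, a knockout labelled Q18 and an overexpression line labelled YOE. The study asked how NtCISZOG, an enzyme that attaches glucose to the cytokinin cis-zeatin, acts on chlorophyll content. The design text named the lines K326-gk-8 and KY-OE-31, so Q18 was compared with K326 and YOE with KY. Whether Q18 and YOE are those lines, what promoter drives the transgene and whether each line is 1 clone are not given in the sources used here. Labels do not say whether the 3 libraries of a group are different plants, and the p-values therefore cover the spread among these libraries only, which could be technical.

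Expansins loosen the wall without cutting its polymers, by weakening the contact between cellulose and other polysaccharides, and they are best known for their part in the expansion of growing cells. Xyloglucan endotransglucosylase/hydrolases (XTH) cut a xyloglucan chain and join it to another chain or to water, while a xyloglucan fucosyltransferase adds fucose to its side chains. Cellulose synthases of the CesA type are the catalytic subunits of a complex in the plasma membrane and carry a zinc finger near the amino end. Cellulose synthase-like proteins share the catalytic domain, make other wall polysaccharides, and mostly lack that finger. The table's descriptions do not separate CesA from the like proteins, so the cellulose synthases are given by whether the description names a zinc finger. Tobacco is an allotetraploid, and how reads of near-identical copies were split between genes was not tested here.

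The libraries labelled YOE went with K326 and not with KY at genes that were on in 1 wild type and off in the other, here at 2 or more against 0.2 or less in all libraries. Of 81 genes on in K326 and off in KY, the YOE libraries had 80, 80 and 81 at 1 or more, and of 15 genes on in KY and off in K326 they had 0, 1 and 1. None of these genes was an expansin, xyloglucan enzyme or cellulose synthase. Against KY, a difference of the line and one of the background cannot be told apart. K326 is therefore given as a second reference for the counts of expansins, xyloglucan enzymes and cellulose synthases, and for other genes where stated. NtCISZOG itself was not identified in the table, so its level could not be used to check the labels.

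Levels were taken as TPM, a share of all transcripts that is corrected for gene length. The header names no unit, and FPKM, another length-corrected unit, is possible. TPM over all transcripts would give every library the same sum, and the sums of the deposited values differ. Each library was divided by the median of its ratios to an average profile, and the result is called scaled TPM below. As deposited, the libraries summed to between 334759 and 676862, and the median gene was offset between groups by a log2 difference of 0.24 for Q18 minus K326, -0.11 for YOE minus KY, 0.39 for K326 minus KY and -0.51 for YOE minus K326. Scaling brought these to 0.02, -0.01, 0.02 and -0.02. TPM keeps no depth, so the number of reads behind each value is unknown. As a check of the leaf label, the 76 chlorophyll a-b binding genes, which serve in light harvesting, summed to 16540 to 43700 scaled TPM. Differences are on the scale of log2(scaled TPM + 1), which understates the change of low genes. A gene was called at a limma adjusted p under 0.05 over all 30621 genes tested.

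Of the 233 genes, 80 reached 1 scaled TPM in at least 3 libraries and were tested. A further 64 were at 0 in every library, and the other 89 stayed below the filter. The genes not tested held at most 1.33% of the summed level of all members in any group. Those with the expansin signature in their description were the largest expansin class, with 55 genes of which 17 were tested. Another 22 were of the Lol pI type, named after the group-1 pollen allergen of ryegrass, and 4 of these were tested. The remaining expansins had no signature, and their descriptions named a cellulose-binding-like domain (19, 3 tested) or did not (16, 1 tested). Of 60 XTH genes 31 were tested, and none of the 6 xyloglucan fucosyltransferases was. Of the cellulose synthases, 14 of 28 with a zinc finger and 10 of 27 without one were tested. Of the 80 tested genes, 6 would not have reached the filter if the libraries of a group were left out, 3 expansins and 3 XTH genes. The expansin Nitab4.5_0000508g0180 needed both K326 and YOE, and the XTH gene Nitab4.5_0003934g0090 needed K326, Q18 and YOE. Each of the others depended on 1 group, the one where it was highest, so that the filter favoured a difference. Leaving all 6 out, 35 of 74 were called higher and 10 lower in YOE against KY, 18 and 4 in YOE against K326, and 14 and 10 in K326 against KY. Of the 80, 43 (53.8%) had their highest group mean in YOE, against 27.8% of all tested genes. Of the 6 genes that depended on a group to reach the filter, all but the expansin Nitab4.5_0000512g0170 are among the 43. Their place was partly set by the filter, and they are no support for a higher level in YOE. The share of all tested genes includes such genes too. KY was the lowest group for 13 of the 14 zinc-finger cellulose synthases, and for 11305 of all 30621 tested genes.

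**Figure D1:**
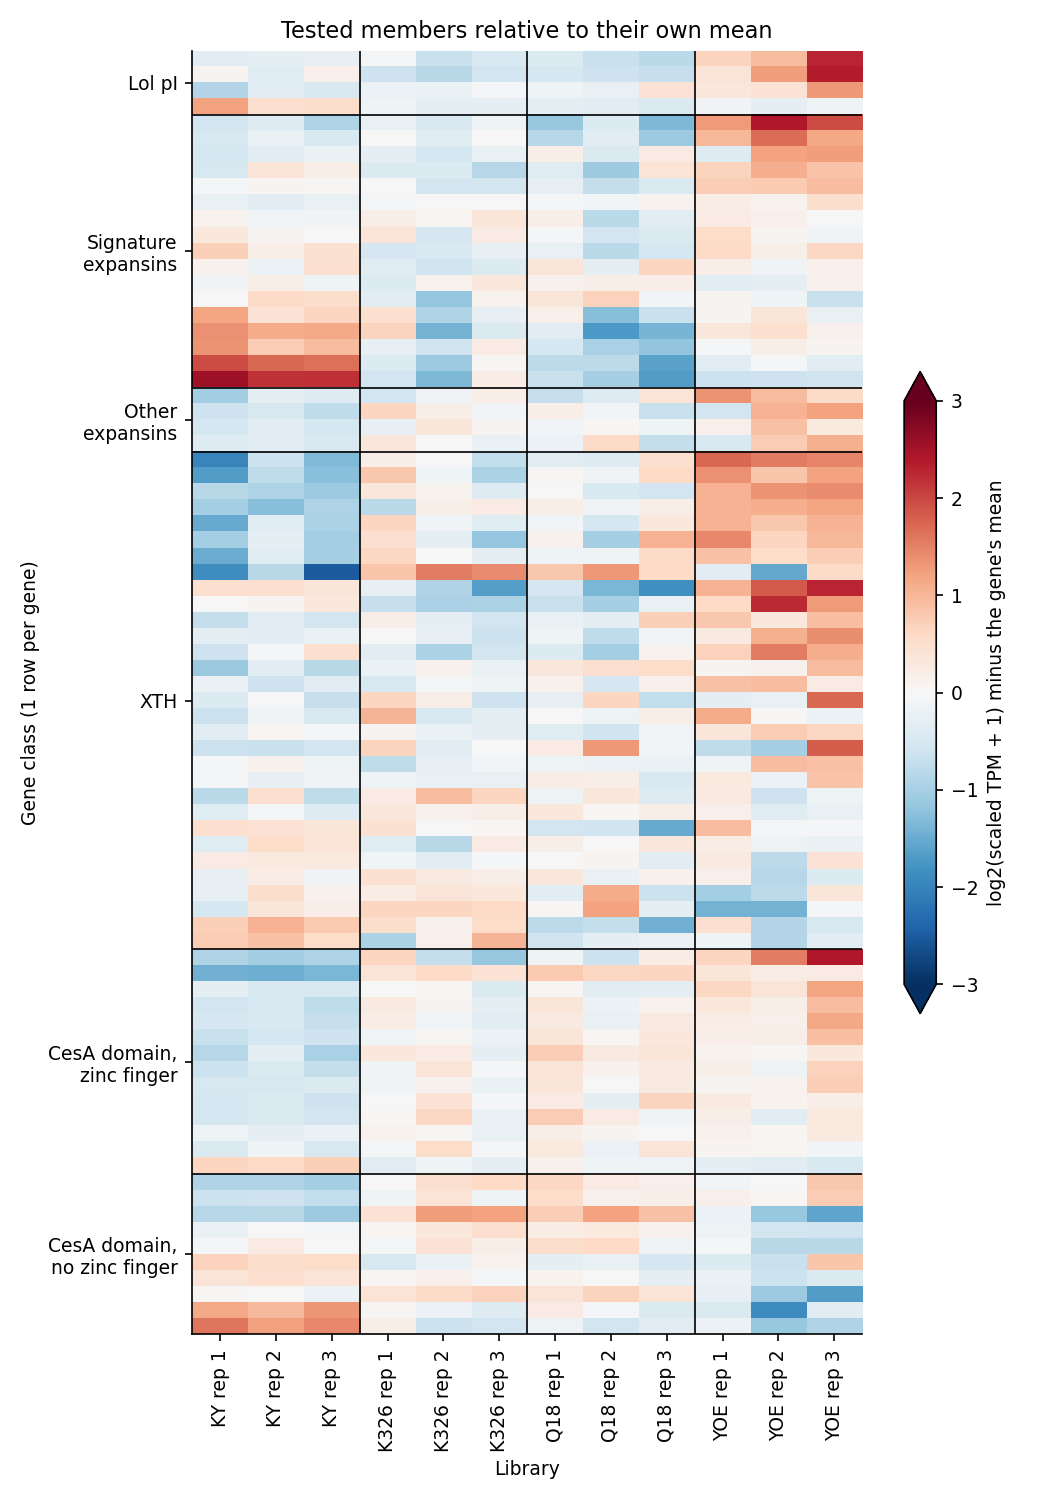
Each row is 1 of the 80 tested genes and each column 1 of the 12 libraries, coloured by log2(scaled TPM + 1) minus the gene's own mean over all libraries, with rows grouped by class and ordered by the difference between YOE and KY. CesA domain stands for cellulose synthases. Rows red under all 3 YOE libraries are seen among expansins and XTH genes, and the zinc-finger rows are mostly blue under KY.

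The summed level of a class shows where most of its RNA lay; fewer cells that express a gene and less RNA per cell cannot be told apart in bulk samples. Lol pI-type expansins summed to 89.5, 79.2 and 94.4 scaled TPM in KY, 79.0, 59.9 and 70.8 in K326, 71.9, 63.6 and 65.3 in Q18 and 140.1, 207.9 and 467.7 in YOE. All 3 YOE libraries lay above the 9 others, and they differed from each other by more than any other group did. Signature expansins instead stood highest in KY, at 163, 128 and 132, against 79.9, 45.3 and 74.0 in K326, 67.7, 39.6 and 46.7 in Q18 and 95.3, 124 and 102 in YOE. The 3 genes highest within all expansins made up 66.0% of the expansin sum in YOE and 43.1% in KY.

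XTH genes and the other xyloglucan enzymes together summed to 646 ± 75.2 in KY, 788 ± 80.7 in K326, 722 ± 52.1 in Q18 and 1057 ± 104 in YOE (SD, n = 3 each, as for every ± below unless SE is named). No library of another group reached the lowest YOE library at 940.2. Cellulose synthases as a whole differed little after scaling, at 347 ± 6.62 in KY, 370 ± 43.5 in K326, 398 ± 43.0 in Q18 and 389 ± 82.2 in YOE. The classes beneath that sum parted between KY and the other groups. Genes with a zinc finger were at 145, 157 and 138 in KY, 216, 258 and 189 in K326, 270, 200 and 271 in Q18 and 247, 232 and 343 in YOE. Those without it were at 209, 191 and 202 in KY, 143.5, 159.8 and 143.6 in K326, 166.4, 151.2 and 134.1 in Q18 and 125, 85.3 and 136 in YOE. As deposited, cellulose synthases summed to 287 ± 25.7 in KY, 441 ± 125 in K326, 562 ± 36.1 in Q18 and 302 ± 135 in YOE, and xyloglucan enzymes to 537 ± 111, 923 ± 113, 1023 ± 57.1 and 805 ± 271, so that the order of the groups depends on the scale. On the deposited values the log2 ratio of the YOE to the K326 sum was 0.87 for expansins, -0.20 for xyloglucan enzymes and -0.55 for cellulose synthases, against 1.43, 0.42 and 0.07 after scaling.

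**Figure D2:**
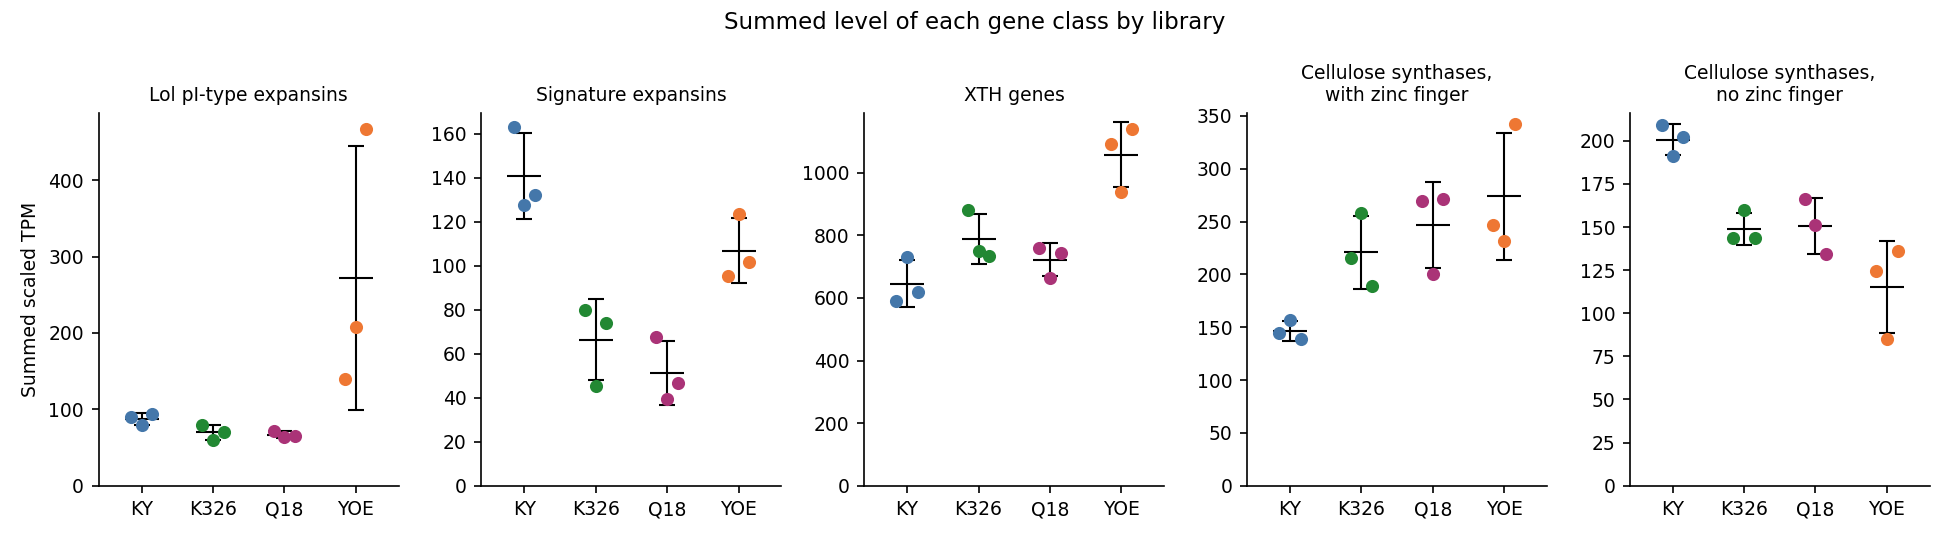
Each point is the summed scaled TPM of a gene class in 1 library, with the group mean as a bar and the SD over 3 libraries as whiskers; every vertical axis starts at 0 and has its own range. On this scale YOE stands above the other groups for Lol pI-type expansins and XTH genes, and KY stands above them for cellulose synthases with no zinc finger.

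The comparison of the knockout with its wild type gave no call. In Q18 against K326, 0 of 80 genes were called, and limma called 0% of all genes tested in either direction. At an unadjusted p under 0.05 there were 9 of 80, where 6.78% of all tested genes were, and with the libraries of both groups apart there were 4 higher and 2 lower, where 7.99% of all tested genes were higher without overlap and 6.05% lower. The lowest adjusted p among them was 0.281. It belonged to the XTH gene Nitab4.5_0000926g0150, which stood at 61.5, 46.6 and 62.7 in K326 and at 24.0, 25.4 and 14.8 in Q18, a log2 difference of -1.39 ± 0.31 (SE). The groups were apart, but the gene did not pass the test over all genes. A second XTH gene, Nitab4.5_0007701g0010, was at 27.6, 19.7 and 20.8 in K326 and at 13.01, 12.7 and 6.26 in Q18 (limma adjusted p = 0.408), and the expansin Nitab4.5_0000042g0030 was at 0.687, 0.443 and 0.625 against 1.79, 0.787 and 2.37 (limma adjusted p = 0.543). Neither pair of groups overlapped, and neither gene passed.

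Against KY, most classes stood higher in YOE. Of 80 genes, 39 (48.8%) were called higher and 11 (13.8%) lower, where limma called 17.9% of all genes tested higher and 17.5% lower. The median log2 difference was 0.72 over the 80 genes and -0.01 over all genes. As deposited, 24 of 79 were higher and 9 lower. After scaling, expansins had 11 higher and 4 lower of 25, XTH genes 15 and 2 of 31, zinc-finger cellulose synthases 11 and 1 of 14, and cellulose synthases with no zinc finger 2 and 4 of 10. Without the genes that depended on a group to reach the filter, expansins had 9 and 3 of 22 and XTH genes 13 and 2 of 28.

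Against K326, fewer genes passed and the families parted. Here 20 of 80 genes (25.0%) were called higher in YOE and 4 (5.0%) lower, where limma called 5.71% of all genes tested higher and 4.74% lower. As deposited the split turned, with 10 higher and 17 lower. Expansins had 8 higher and 0 lower of 25 after scaling, and 5 and 1 as deposited. XTH genes had 10 and 1 of 31 after scaling, and 4 and 6 as deposited. Without the genes that depended on a group to reach the filter, the scaled counts were 7 and 0 of 22 expansins and 9 and 1 of 28 XTH genes. Cellulose synthases had 2 and 3 of 24 after scaling, and 1 and 10 as deposited. In a fit on the YOE and K326 libraries alone 2 genes were called, the expansins Nitab4.5_0003323g0020 and Nitab4.5_0005644g0010. Every other call among the 80 genes in YOE against K326 was lost in that fit, which is not repeated for each gene below. Leaving out K326 replicate 2, K326 replicate 3 or YOE replicate 2 left 13, 12 and 14.

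Both wild types also differed from each other at these genes. In K326 against KY, 14 genes (17.5%) were called higher and 11 (13.8%) lower, where limma called 12.2% of all genes tested higher and 13.3% lower. Expansins had 0 higher and 6 lower of 25, of which 5 lower were of the 17 signature expansins, and 4 higher and 4 lower as deposited. Without the 3 expansins that depended on a group to reach the filter, there were 0 higher and 5 lower of 22 after scaling. XTH genes had 6 higher and 2 lower, or 10 and 1 as deposited, and cellulose synthases 8 and 3, or 15 and 1. Over all 80 genes there were 29 higher and 6 lower as deposited, a more one-sided split. Without KY replicate 1, KY replicate 3 or K326 replicate 2 the number called fell from 25 to 12 each time.

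**Figure D3:**
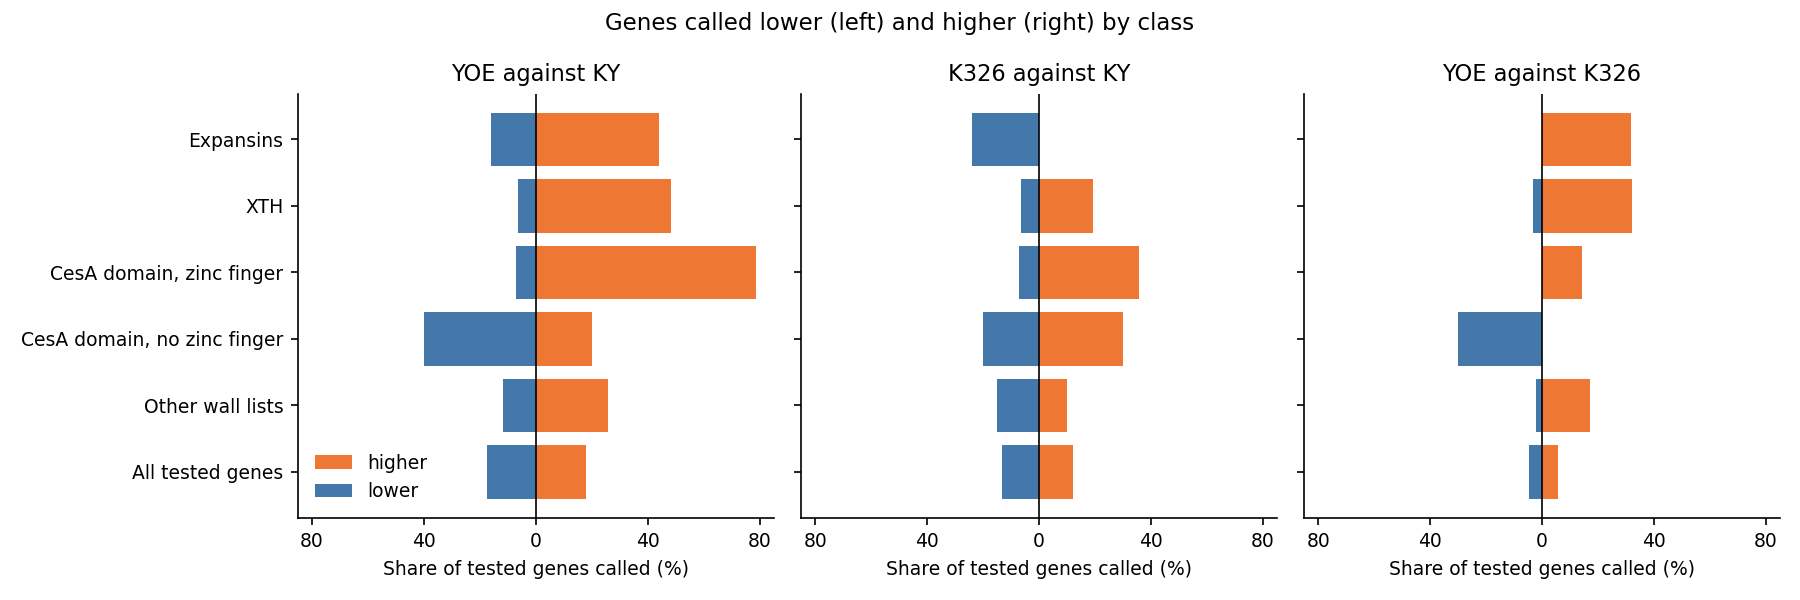
Bars give the percentage of tested genes in each class called higher (right) and lower (left) in 3 comparisons, with all tested genes at the foot. Other wall lists are 14 further lists of cell wall genes. Genes that depended on a group to reach the filter are included. In YOE against KY, the bar for zinc-finger cellulose synthases (11 of 14) reaches furthest to the right, and in K326 against KY no expansin is called higher after scaling, against 4 as deposited.

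Among the expansins, both abundant Lol pI-type genes were called higher in YOE against each wild type. Nitab4.5_0002486g0040 stood at 47.2, 34.5 and 49.4 scaled TPM in KY, 28.9, 24.7 and 29.9 in K326, 30.5, 28.8 and 27.2 in Q18 and 58.7, 108 and 234 in YOE. The YOE libraries were all above the rest and spread widely. The log2 difference was 1.38 ± 0.37 (SE) against KY (limma adjusted p = 0.0143) and 2.00 ± 0.37 against K326 (limma adjusted p = 0.0109). The call against KY was lost without KY replicate 2 (limma adjusted p = 0.0526) and as deposited (limma adjusted p = 0.0691). In fits on the compared groups alone, the calls against KY and K326 were both lost (limma adjusted p = 0.0671 and 0.0886). Nitab4.5_0003603g0040 stood at 32.7, 34.7 and 35.4 in KY, 39.96, 26.1 and 30.4 in K326, 31.4, 26.0 and 23.5 in Q18 and 66.5, 82.0 and 206 in YOE. Again no other library reached the lowest of YOE, and replicate 3 was the highest. The log2 difference was 1.58 ± 0.34 (SE) against KY (limma adjusted p = 0.00444) and 1.69 ± 0.34 against K326 (limma adjusted p = 0.0137), and the latter call was lost without K326 replicate 2 or K326 replicate 3 (limma adjusted p = 0.0507 for each) and as deposited (limma adjusted p = 0.0606).

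The signature expansins split by reference. Nitab4.5_0003323g0020 was at 2.73, 3.27 and 1.92 in KY, 3.76, 2.96 and 4.00 in K326, 1.51, 3.18 and 1.19 in Q18 and 12.4, 28.1 and 20.6 in YOE. It was higher in YOE by a log2 difference of 2.50 ± 0.29 (SE) against KY (limma adjusted p = 0.000146) and 2.16 ± 0.29 against K326 (limma adjusted p = 0.0045), and both calls held as deposited and with each library left out. The low Nitab4.5_0000046g0160, at 0.612 to 0.936 in KY, 0.750 to 1.26 in K326, 0.062 to 0.806 in Q18 and 3.52 to 6.22 in YOE, was called in the same fits (log2 difference 1.67 against KY and 1.40 against K326), but it would not have reached the filter without the YOE libraries. Nitab4.5_0000568g0030, at 2.82 to 3.15 in KY, 1.67 to 2.92 in K326, 1.39 to 2.32 in Q18 and 5.52 to 6.44 in YOE, was called against both (log2 difference 0.79 and 1.19) and not against KY as deposited (limma adjusted p = 0.0571).

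Another set of signature expansins was high in KY alone. Nitab4.5_0012890g0020 stood at 39.97, 30.3 and 31.1 in KY, 3.69, 1.76 and 7.18 in K326, 3.43, 2.51 and 1.18 in Q18 and 3.45, 3.54 and 3.602 in YOE. The 9 libraries of the other groups all lay far below KY. It was lower than in KY by a log2 difference of -2.93 ± 0.34 (SE) in YOE (limma adjusted p = 0.000145) and -2.87 ± 0.34 in K326 (limma adjusted p = 0.000234), and YOE against K326 was at -0.06 ± 0.34. Nitab4.5_0004599g0080 went from 14.5 to 18.1 in KY down to 1.31 to 4.03 in K326, 0.611 to 1.88 in Q18 and 2.92 to 3.78 in YOE (log2 difference -2.00 in YOE and -2.27 in K326, both called), and YOE against K326 was at 0.26 ± 0.28 (SE). Nitab4.5_0003761g0030, at 6.51 to 10.2 in KY, 1.92 to 4.25 in K326, 0.944 to 2.08 in Q18 and 3.35 to 3.98 in YOE, was called lower in both as well. Nitab4.5_0004623g0040 was at 17.1, 14.0 and 14.3 in KY and 10.0, 1.59 and 4.13 in K326 (log2 difference -1.61, limma adjusted p = 0.0257); that call held in the fit without K326 replicate 1 and was lost in the other 5 fits that left out 1 library of the pair, and YOE against KY was not called (-0.88, limma adjusted p = 0.155). The third most abundant expansin, Nitab4.5_0000040g0160, ranged from 18.4 to 31.4 in KY, 6.64 to 19.0 in K326, 4.91 to 14.9 in Q18 and 11.3 to 17.5 in YOE and was called in no comparison.

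Of the 3 most abundant XTH genes, 2 were called in no comparison after scaling. Nitab4.5_0000396g0010 was at 155, 192 and 153 in KY, 253, 216 and 227 in K326, 247, 208 and 228 in Q18 and 223, 154 and 171 in YOE, and Nitab4.5_0003353g0030 was at 70.9 to 98.5 in KY, 97.1 to 116 in K326, 73.4 to 106 in Q18 and 46.1 to 92.9 in YOE. As deposited, both were called lower in YOE than in K326 (log2 difference -1.03 and -1.35), against -0.36 and -0.69 after scaling. On the deposited values Nitab4.5_0000396g0010 was also called higher in K326 than in KY (log2 difference 0.98, limma adjusted p = 0.0115), against 0.48 after scaling (limma adjusted p = 0.0551).

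The largest rise among XTH genes was that of Nitab4.5_0001675g0050, at 1.65, 5.64 and 3.13 in KY, 10.9, 9.47 and 5.21 in K326, 7.36, 6.95 and 13.6 in Q18 and 33.5, 29.5 and 27.7 in YOE. YOE lay above all other libraries, and K326 and Q18 overlapped. The log2 difference was 2.90 ± 0.35 (SE) against KY (limma adjusted p = 0.000159) and 1.76 ± 0.35 against K326 (limma adjusted p = 0.0131), the latter lost without K326 replicate 3 (limma adjusted p = 0.052). Nitab4.5_0002613g0030 was at 5.07, 4.67 and 4.09 in KY, 12.6, 10.6 and 7.23 in K326, 9.67, 6.78 and 6.22 in Q18 and 21.3, 26.6 and 27.9 in YOE. Its order was KY, then K326 and Q18, then YOE, with a log2 difference of 2.22 ± 0.20 (SE) for YOE against KY (limma adjusted p = 2.38e-05), 0.96 ± 0.20 for K326 against KY (limma adjusted p = 0.00616) and 1.26 ± 0.20 for YOE against K326 (limma adjusted p = 0.00685, and 0.0649 as deposited). Nitab4.5_0001134g0070 had the same order of means, at 14.4 ± 1.89 in KY, 29.95 ± 11.0 in K326 and 68.5 ± 3.74 in YOE, and its call against K326 was lost as deposited (limma adjusted p = 0.133).

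Other XTH genes were lower in K326 than in KY and yet higher in YOE. Nitab4.5_0000037g0180, the third of the most abundant, stood at 59.9, 59.7 and 53.9 in KY, 34.9, 21.8 and 12.5 in K326, 29.2, 15.5 and 10.9 in Q18 and 87.2, 152 and 207 in YOE. The groups KY, K326 and YOE did not overlap. Its difference from K326 was called in YOE (log2 2.66 ± 0.41 (SE), limma adjusted p = 0.00652, called as deposited too), while YOE against KY (1.26, limma adjusted p = 0.0345) was called in only 1 of the 6 fits that left out a library, that without YOE replicate 1, and not as deposited (limma adjusted p = 0.112). K326 against KY (-1.40, limma adjusted p = 0.0303) likewise held only without K326 replicate 1 and not as deposited. Nitab4.5_0006988g0030 was at 1.86, 2.05 and 2.59 in KY, 0.778, 0.464 and 0.504 in K326, 0.813, 0.446 and 1.47 in Q18 and 3.38, 12.6 and 5.99 in YOE. YOE was again above all others, by a log2 difference of 2.24 against K326 (limma adjusted p = 0.00585) and 1.25 against KY (limma adjusted p = 0.0144, and 0.0512 without KY replicate 1). In fits on the compared groups alone, both calls were lost (limma adjusted p = 0.0652 and 0.0521). The call of K326 against KY (limma adjusted p = 0.0488) was lost in each of the 6 fits that left out a library.

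For 2 XTH genes YOE was set apart from KY as clearly, and from K326 less so. Nitab4.5_0000244g0350, at 8.07, 15.9 and 11.2 in KY, 49.4, 25.5 and 14.0 in K326 and 73.7, 50.3 and 65.7 in YOE, was higher against KY by a log2 difference of 2.36 (limma adjusted p = 0.00102) and was not called against K326 (1.22, limma adjusted p = 0.0674). Nitab4.5_0013465g0010, at 15.999 to 35.99 in KY, 38.2 to 72.1 in K326 and 68.8 to 86.5 in YOE, rose against KY in YOE (1.67, limma adjusted p = 0.00195) and in K326 (1.06, limma adjusted p = 0.0268, lost without KY replicate 1, KY replicate 3, K326 replicate 1 or K326 replicate 2). Among XTH genes, the largest difference between the wild types was in Nitab4.5_0000404g0110, at 1.79, 4.71 and 0.790 in KY and 16.9, 28.3 and 26.1 in K326 (log2 2.99, limma adjusted p = 0.00215), with YOE at 6.93, 2.49 and 14.0. After scaling YOE was called against neither wild type.

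Few XTH genes fell. Nitab4.5_0000926g0150, described above for Q18, was at 69.9, 88.5 and 73.6 in KY and 60.5, 22.5 and 30.1 in YOE (log2 -1.13, limma adjusted p = 0.0168), a call lost without KY replicate 2, YOE replicate 2 or YOE replicate 3. Nitab4.5_0001819g0100 was at 9.13, 9.93 and 7.80 in KY and 4.46, 2.24 and 3.79 in YOE (log2 -1.18, limma adjusted p = 0.0361) and was called only without YOE replicate 1 among the 6 fits that left out a library. Against K326, the only lower XTH gene was Nitab4.5_0000592g0220, at 15.5, 15.7 and 15.2 in K326 and 3.00, 3.00 and 9.24 in YOE (log2 -1.59, limma adjusted p = 0.0398), called only without YOE replicate 3. Below the filter, the XTH gene Nitab4.5_0002579g0060 was at 18.3 in YOE replicate 3, 1.04 in YOE replicate 2 and 0.323 or less in the 10 other libraries; it was singled out after its values were seen and was not tested.

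**Figure D4:**
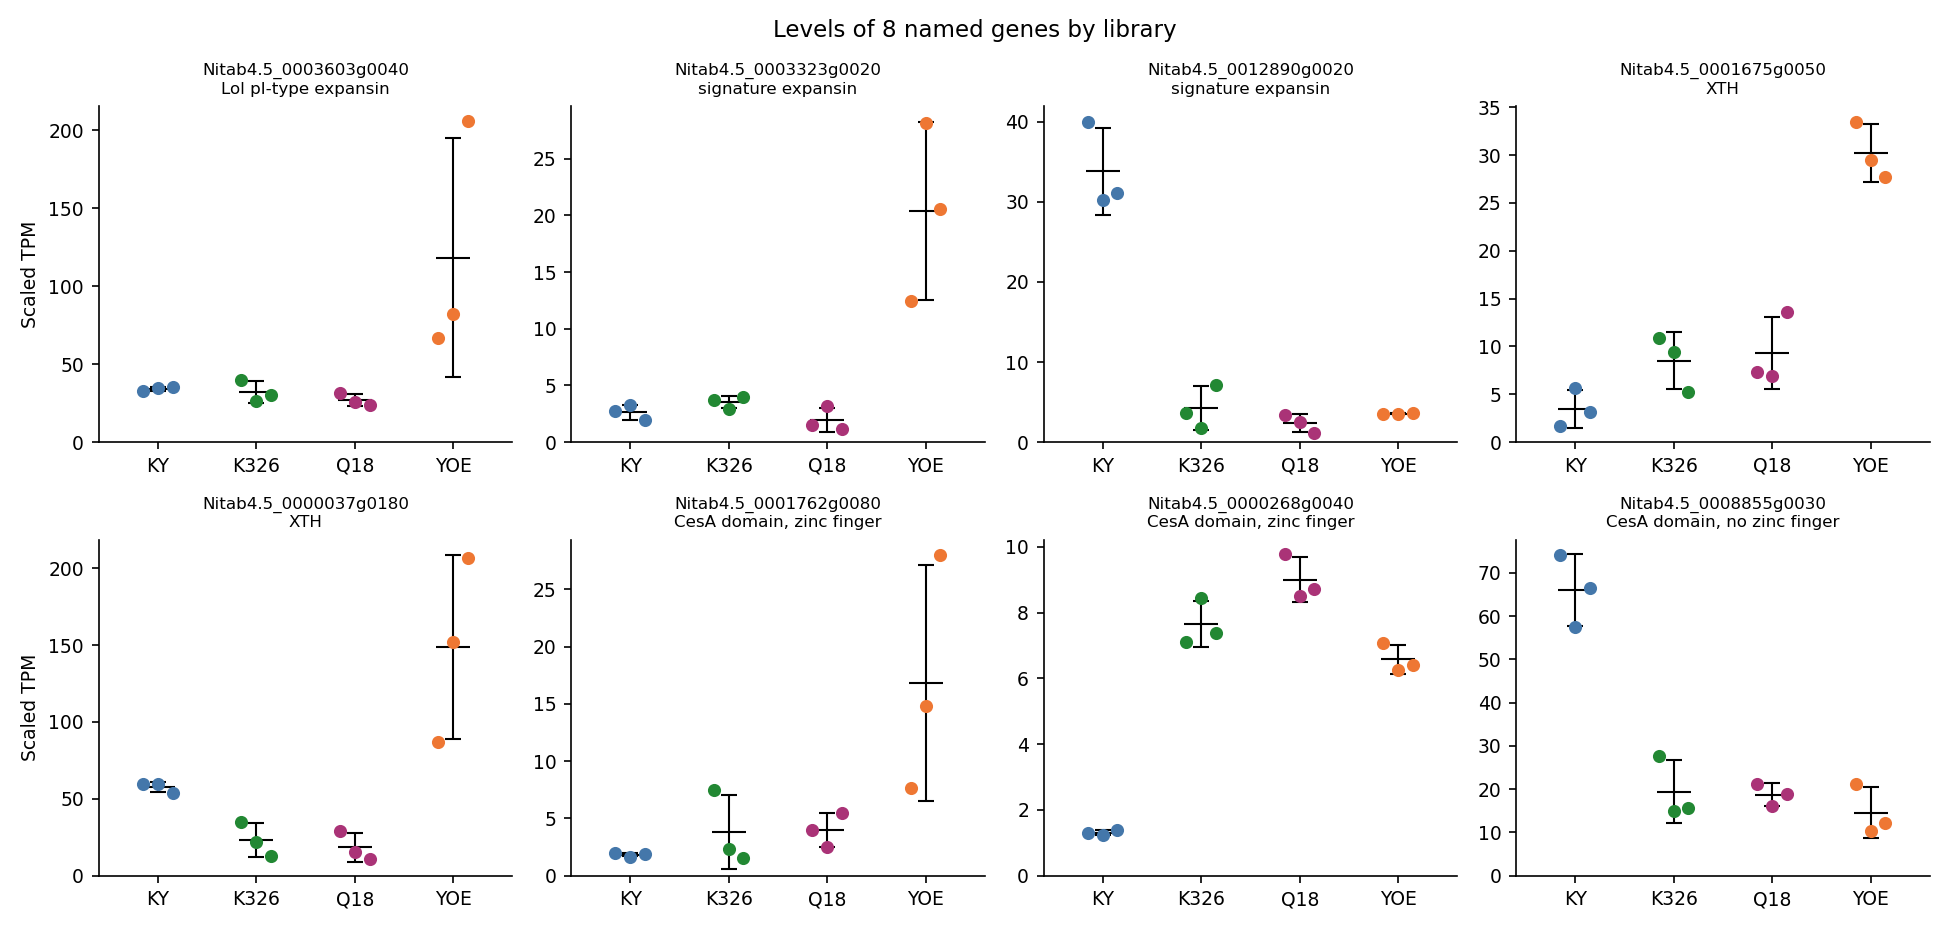
Each panel gives the scaled TPM of 1 gene in the 12 libraries (points), with the group mean as a bar and the SD over 3 libraries as whiskers; vertical axes start at 0 and differ between panels. The expansin Nitab4.5_0012890g0020 and the cellulose synthase Nitab4.5_0008855g0030 are high in KY alone, Nitab4.5_0000268g0040 is low in KY alone, and the 5 other genes are highest in YOE.

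Cellulose synthases with a zinc finger were mostly higher outside KY. The most abundant, Nitab4.5_0001344g0020, was at 33.7, 36.5 and 31.5 in KY, 49.1, 67.1 and 47.8 in K326, 58.5, 40.5 and 78.9 in Q18 and 59.2, 52.6 and 56.2 in YOE. KY lay below every other library. It was higher by a log2 difference of 0.71 ± 0.21 (SE) in YOE (limma adjusted p = 0.0234) and 0.66 ± 0.21 in K326 (limma adjusted p = 0.0416); the first held only without KY replicate 2 or YOE replicate 2 and not as deposited (limma adjusted p = 0.196), and the second in none of the 6 fits that left out a library. Nitab4.5_0000268g0040 was clearer, at 1.29, 1.24 and 1.39 in KY, 7.11, 8.45 and 7.39 in K326, 9.79, 8.51 and 8.71 in Q18 and 7.07, 6.25 and 6.42 in YOE. The log2 difference to KY was 1.72 ± 0.10 (SE) in YOE (limma adjusted p = 8.33e-07) and 1.90 ± 0.10 in K326 (limma adjusted p = 3.85e-07), and -0.19 ± 0.10 for YOE against K326. Nitab4.5_0000447g0040 was the zinc-finger gene that went the other way, at 8.70 to 9.49 in KY, 4.19 to 4.85 in K326, 4.82 to 5.99 in Q18 and 3.67 to 4.24 in YOE (log2 -1.01 in YOE and -0.88 in K326, both called, the latter not as deposited at a limma adjusted p of 0.129).

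The zinc-finger genes called higher in YOE against both wild types were Nitab4.5_0001762g0080 and Nitab4.5_0001582g0100. The first was at 1.94, 1.67 and 1.87 in KY, 7.50, 2.36 and 1.502 in K326, 4.03, 2.53 and 5.44 in Q18 and 7.63, 14.8 and 27.96 in YOE. YOE replicate 1 stood only just above K326 replicate 1. The log2 difference was 2.48 ± 0.47 (SE) against KY (limma adjusted p = 0.0024) and 1.93 ± 0.47 against K326 (limma adjusted p = 0.0285), the latter held only without K326 replicate 1 or YOE replicate 1. The second was at 4.66 to 5.47 in KY, 4.86 to 7.21 in K326 and 9.23 to 16.9 in YOE (log2 1.14 and 0.85); its call against K326 was lost without K326 replicate 3 (limma adjusted p = 0.1), without YOE replicate 3 (limma adjusted p = 0.0551) and as deposited (limma adjusted p = 0.483).

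Among cellulose synthases with no zinc finger, the most abundant in KY were lower elsewhere. Nitab4.5_0008855g0030 stood at 74.2, 57.5 and 66.4 in KY, 27.8, 14.99 and 15.6 in K326, 21.3, 16.03 and 19.0 in Q18 and 21.2, 10.2 and 12.2 in YOE. KY was apart from all other libraries, by a log2 difference of -2.16 ± 0.27 (SE) in YOE (limma adjusted p = 0.000211) and -1.76 ± 0.27 in K326 (limma adjusted p = 0.0012), with -0.40 ± 0.27 for YOE against K326. Nitab4.5_0000130g0300 was at 30.4 to 39.2 in KY, 11.3 to 15.4 in K326, 11.0 to 18.1 in Q18 and 3.38 to 11.7 in YOE (log2 -2.03 in YOE, called, and -1.32 in K326, not called as deposited at a limma adjusted p of 0.143, or without KY replicate 1, KY replicate 3, K326 replicate 2 or K326 replicate 3). Nitab4.5_0000163g0110, at 42.1, 45.3 and 42.8 in KY, 32.9, 35.7 and 30.8 in K326, 34.3, 32.1 and 25.8 in Q18 and 27.4, 19.99 and 23.4 in YOE, was lower in YOE than in KY (log2 -0.86, limma adjusted p = 0.000935) and was not called in K326 (-0.38, limma adjusted p = 0.0683).

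Others of this class were higher in K326 than in KY. Nitab4.5_0004290g0030, at 18.7 to 20.4 in KY, 28.9 to 42.8 in K326, 34.9 to 47.1 in Q18 and 33.4 to 54.3 in YOE, was higher in YOE (log2 0.99, limma adjusted p = 0.0037, and 0.0888 as deposited) and in K326 (0.72, limma adjusted p = 0.0257, lost without KY replicate 1, KY replicate 2, KY replicate 3 or K326 replicate 2). Nitab4.5_0007779g0010 had the same pattern at a lower level, from 0.471 to 0.586 in KY to 1.77 to 4.20 in YOE and 1.94 to 3.46 in K326. Nitab4.5_0000798g0130 was at 3.00, 3.04 and 2.37 in KY, 8.69, 16.1 and 15.8 in K326, 11.0, 15.7 and 12.2 in Q18 and 5.42, 2.29 and 1.40 in YOE. K326 and Q18 were high, and KY and YOE overlapped, with a log2 difference of 1.89 ± 0.33 (SE) for K326 against KY (limma adjusted p = 0.00228) and -1.93 ± 0.33 for YOE against K326 (limma adjusted p = 0.00861).

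The gene called lower in YOE against both wild types was Nitab4.5_0002367g0020, also with no zinc finger, at 10.6, 10.3 and 9.12 in KY, 14.2, 16.1 and 17.3 in K326, 13.9, 17.1 and 14.0 in Q18 and 8.67, 4.31 and 2.58 in YOE. The YOE libraries were the lowest of the 12. The log2 difference was -0.95 ± 0.28 (SE) against KY (limma adjusted p = 0.0201, lost without KY replicate 1, KY replicate 2, YOE replicate 2 or YOE replicate 3) and -1.57 ± 0.28 against K326 (limma adjusted p = 0.00952). In fits on the compared groups alone, both calls were lost (limma adjusted p = 0.0777 and 0.0853). Nitab4.5_0000756g0030, at 3.17, 3.98 and 4.71 in K326 and 2.61, 1.73 and 1.64 in YOE, was lower in YOE as well (log2 -0.73, limma adjusted p = 0.0147), a call lost without K326 replicate 3 or YOE replicate 2.

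Both comparisons of YOE share the YOE libraries, so their calls are set side by side as a description. There were 17 genes called higher in YOE than in each wild type and 1 called lower, where 4.09% of all tested genes were called higher in both and 2.54% lower. The 17 were 6 expansins, 9 XTH genes and 2 cellulose synthases. They include the expansin Nitab4.5_0000046g0160 and the XTH gene Nitab4.5_0005793g0020, which was at 0.370 to 0.781 in KY, 0.382 to 0.788 in K326, 0.124 to 0.611 in Q18 and 1.20 to 1.87 in YOE. Neither would have reached the filter without the YOE libraries, so they are no support for a higher level in YOE. As deposited, 6 of the 17 and the lower gene passed in both comparisons, and 5 of the 17 passed in both with each library left out in turn. Nitab4.5_0000046g0160 is counted in both the 6 and the 5.

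**Figure D5:**
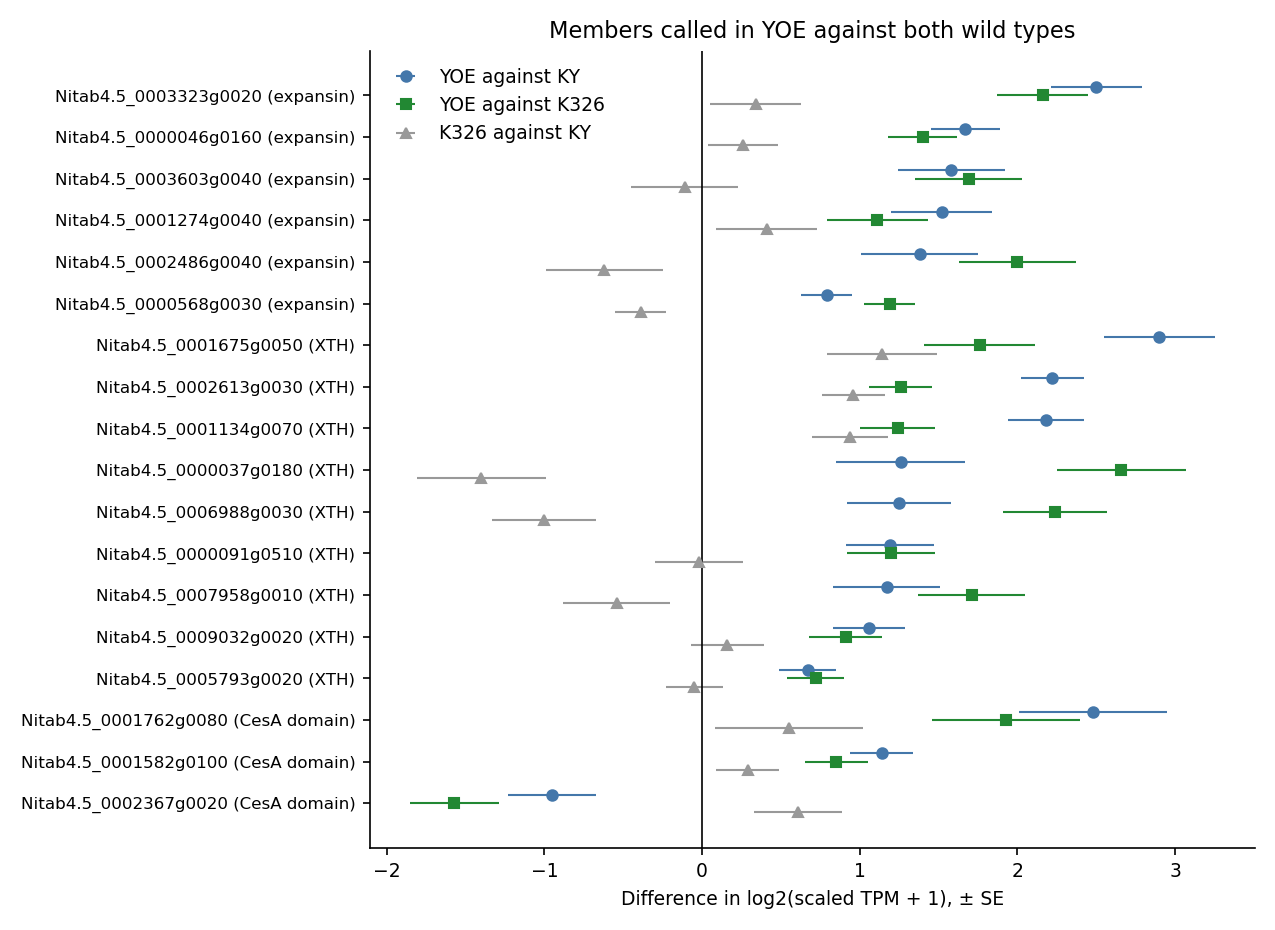
Points give the difference in log2(scaled TPM + 1) with its SE for the 18 genes called in YOE against both wild types, as YOE against KY (circles), YOE against K326 (squares) and K326 against KY (triangles). The 17 higher genes have both YOE points right of 0, and Nitab4.5_0002367g0020 has both left of it.

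Other genes of the cell wall were read from the same fit. Of 329 tested genes in 14 further lists, which took in pectin, callose and wall protein genes, 85 (25.8%) were called higher and 39 (11.9%) lower in YOE against KY, or 49 and 38 as deposited, beside the 17.9% and 17.5% of all genes given above. Against K326 there were 56 and 7, or 23 and 65 as deposited, where limma called 5.71% of all tested genes higher and 4.74% lower after scaling. Proteins with a fasciclin domain, which include arabinogalactan proteins of the cell surface, had 14 higher and 1 lower of 25 against KY, or 10 and 1 as deposited, and 8 and 0 against K326, or 4 and 3 as deposited. The fasciclin gene Nitab4.5_0002629g0030 was at 4.65, 2.10 and 2.92 in KY, 9.24, 6.18 and 2.49 in K326 and 35.1, 53.4 and 70.1 in YOE (log2 3.66 against KY, limma adjusted p = 0.000279, and 3.03 against K326). Family 8 glycosyltransferases, which include enzymes of pectin and xylan synthesis, had 21 higher and 1 lower of 47 against KY. They were led by Nitab4.5_0000116g0180 at 5.20, 5.48 and 5.80 in KY and 22.1, 22.9 and 22.5 in YOE (log2 1.86, limma adjusted p = 2.05e-06). Against K326 the family had 9 and 0, or 3 and 7 of 50 as deposited. The same gene was called there after scaling (log2 1.40, limma adjusted p = 0.00149). COBRA proteins bear on the orientation of cellulose microfibrils in Arabidopsis. Against KY they had 4 higher and 2 lower of 6 in YOE and the same counts in K326 (4 and 0 in K326 as deposited). In YOE against K326 they had 0 and 0, or 0 and 2 as deposited. Nitab4.5_0000212g0310 was at 15.6 ± 1.53 in KY, 33.9 in K326, 38.6 in Q18 and 48.7 ± 11.4 in YOE. It was not called in YOE against K326 (log2 0.50, limma adjusted p = 0.104).

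Pectin genes were mixed. Beside the counts that follow, limma called 17.9% of all tested genes higher and 17.5% lower in YOE against KY. In K326 against KY it called 12.2% and 13.3%, and in YOE against K326 5.71% and 4.74%. In YOE against K326, pectinesterases had 15 higher and 2 lower of 52, or 5 and 14 of 55 as deposited. Extensin-described genes had 10 and 1 of 30 there, or 7 and 9 of 31 as deposited. Polygalacturonases had 2 and 0 of 26, or 0 and 3 as deposited, and pectate lyases 1 and 1 of 17, or 0 and 3. Family 9 endoglucanases had 3 and 0 of 13, or 1 and 1 of 14. As deposited, YOE against KY had 8 higher and 6 lower of 55 pectinesterases, 2 and 8 of 26 polygalacturonases and 2 and 6 of 17 pectate lyases. Family 9 endoglucanases had 2 and 2 of 14 on that scale, extensin-described genes 4 and 3 of 31, exostosin-type genes 1 and 0 of 44 and PMR5 genes 1 and 5 of 38. Pectinesterases, counted with proteins that have only their inhibitor domain, had 15 higher and 7 lower of 52 in YOE against KY, and the inhibitor-domain gene Nitab4.5_0000072g0600 was at 10.2, 11.6 and 8.42 in KY, 49.7, 63.2 and 40.4 in K326 and 84.1, 109 and 93.9 in YOE (log2 3.13, limma adjusted p = 5.51e-06). Polygalacturonases, which cut pectin, had 2 higher and 8 lower of 26, and 0 and 13 in K326 against KY. Nitab4.5_0000926g0120 stood at 9.00 ± 2.83 in KY, 1.28 in K326, 0.977 in Q18 and 1.80 ± 0.096 in YOE. It was not called in YOE against K326 (limma adjusted p = 0.309). Pectate lyases had 2 and 6 of 17, and of these Nitab4.5_0001360g0220 reached the filter only through KY. It was at 2.75 ± 0.172 in KY, 0.355 in K326, 0.360 in Q18 and 0.491 ± 0.117 in YOE. Family 9 endoglucanases had 4 and 2 of 13, with Nitab4.5_0004090g0110 at 13.7 ± 1.37 in KY, 17.7 in K326 and 38.8 ± 12.0 in YOE. Extensin-described genes had 9 and 2 of 30, with Nitab4.5_0006859g0020 at 51.3 ± 1.87 in KY, 58.5 in K326 and 156 ± 32.4 in YOE. Exostosin-type genes had 6 and 0 of 41, PMR5 genes 5 and 5 of 37, callose synthases 2 and 2 of 18, sucrose synthases 0 and 2 of 10, other family 16 hydrolases 1 and 0 of 5, and laccases 0 and 1 of 2. For the gene with the smallest p of each of these lists, levels follow in KY, K326 and YOE, in that order. They were 7.70 ± 0.616, 11.6 and 14.4 ± 0.521 for the exostosin-type gene Nitab4.5_0007725g0010. The PMR5 gene Nitab4.5_0000347g0140 was at 7.11 ± 0.260, 5.49 and 2.19 ± 0.607, and the callose synthase Nitab4.5_0007074g0040 at 2.85 ± 0.817, 1.01 and 1.36 ± 0.447. From the sucrose synthase list, Nitab4.5_0000374g0020, described as a sucrose-phosphate synthase, was at 11.5 ± 1.05, 6.14 and 4.03 ± 0.799. The family 16 hydrolase Nitab4.5_0003734g0040 was at 0.535 ± 0.492, 1.81 and 4.00 ± 0.767, and the laccase Nitab4.5_0000178g0220 at 4.53 ± 0.836, 1.915 and 1.31 ± 0.574. Among these, the PMR5 and sucrose synthase list genes were called in YOE against K326 (limma adjusted p = 0.0119 and 0.0261), and the others were not.

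Marker genes of other cell types were summed in the same libraries. Calls below are for YOE against KY unless K326 is named, and there limma called 17.9% of all tested genes higher and 17.5% lower. As deposited, 8 of 36 phloem genes were called higher and 2 lower, with 23 and 1 of 94 histones and 1 and 6 of 29 cyclins. The 60 phloem genes, 2 of them at 0 in every library, summed to 491 to 593 in KY, 344 to 393 in K326, 439 to 562 in Q18 and 640.2, 1285 and 1434 in YOE, and 14 of the 38 tested were called higher and 3 lower in YOE against KY. The 130 histone genes, 13 at 0, summed to 1830 to 1937 in KY, 1719 to 1977 in K326, 1657 to 1708 in Q18 and 2466, 2674 and 1864 in YOE, with 38 higher and 6 lower of 93. The 92 cyclins, 8 at 0, had 6 and 6 of 31 and summed to 130 to 146 in KY, 109 to 119 in K326, 112 to 130 in Q18 and 112 to 122 in YOE. The 19 mini-chromosome maintenance genes, which license DNA replication, summed to 6.25 to 11.0 over all libraries with none of 3 called. The 48 laccases used as a mark of lignifying xylem, 11 at 0, summed to 7.69, 9.38 and 7.05 in KY, 4.40 to 6.06 in K326, 6.43 to 7.36 in Q18 and 3.89, 3.78 and 5.83 in YOE, so that all KY libraries lay above those of YOE. In YOE against K326, limma called 5.71% of all tested genes higher and 4.74% lower. Phloem genes had 14 higher and 1 lower of 38 there, or 9 and 9 of 36 as deposited. Histones had 18 and 0 of 93, or 8 and 16 of 94 as deposited, and cyclins 3 and 1 of 31, or 1 and 10 of 29. The part of these cell types in the changes of expansins, XTH genes and cellulose synthases was not tested.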

How the data were processed

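One table of 69500 genes with 1 column per library was used. Per the submitters' processing notes, the authors used Salmon and StringTie, with versions, settings and genome build not given in the sources used here. Deposited values were taken as TPM, from those tools; the header names no unit, and FPKM is possible. No 2 libraries held identical values. TPM keeps no depth, so no counting interval is given. Of the member identifiers, 0 matched the RefSeq table, so no position or sequence is given.

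Libraries were brought to 1 scale by the median of their ratios to the mean log2 profile, taken over the 20130 genes that reached 1 in every library. Genes at 1 or more in at least 3 libraries were kept. Log2(scaled TPM + 1) was modelled with limma 3.58.1 in R 4.3.3. The model held 1 mean per group over the 12 libraries, its variance prior used the trend and robust options, and p-values were adjusted by Benjamini-Hochberg over all genes. The fit was tested on simulated data. Python 3.11.15 with numpy 2.4.6, pandas 2.3.3 and, for figures, matplotlib 3.10.9 did the rest.

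Genes named were the 3 most abundant of each family, the 3 largest called rises and falls per comparison and family with a mean of at least 2 in the higher group (without a call, the 3 smallest p), genes on in 1 wild type and off in the other (none), and in each other wall list the called gene with the smallest p in YOE against KY. Genes called in YOE against both wild types, and counts without genes that depended on a group to reach the filter, were added after the values were seen. The members and lists were chosen with earlier results of these data known. Alternatives were values as deposited, the compared groups alone, a pseudocount of 0.1, quantile normalization, a filter at a mean of 5 or more, no filter, the replicate number as a block, and each library left out.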

Additional observations from a re-analysis of the deposited data

How the results depend on the processing

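The number of members called in YOE against KY was 50, with 33 as deposited, 33 with a mean of at least 5, and 38 to 53 with 1 library left out, and 35 of the 50 calls held in all 6 such fits. For K326 against KY it was 25, with 12 to 23 when 1 library was left out and 11 calls held throughout. For YOE against K326 it was 24, with 2 in a fit on those groups alone, 12 to 28 when 1 library was left out and 10 calls held throughout. For Q18 against K326 it was 0 in every alternative run, with 3 to 15 at an unadjusted p under 0.05. Results of single named genes kept their side of the threshold in 1685 cases, lost a call in 116 and gained one in 47, and no called value changed sign. Values called in neither fit could change sign and still count as kept. Nitab4.5_0000926g0150 in K326 against KY, for example, was at a log2 difference of -0.44 after scaling and 0.06 as deposited. The causes were not tested. Replicate numbers are shared between groups, and deviations of same-numbered libraries correlated at -0.219 to 0.34, highest for replicate 2 of Q18 and K326. With 3 libraries per group, these correlations cannot decide whether such libraries share more than a number, and the labels do not say. With the replicate block, 0 members were called in Q18 against K326 and 49 in YOE against KY. The block gave 23 in each of K326 against KY and YOE against K326. Depth is unknown, and genes near 1 scaled TPM are limited by the filter and by the added 1.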
